A study of Mus musculus with 24 samples.

Results

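The livers of WT mice were compared between a low-fat diet (LFD) and a high-fat diet (HFD) to describe the response of the normal liver to dietary fat. The comparison used the raw counts of 10 libraries, 5 of single WT mice on the LFD and 5 of single WT mice on the HFD, out of 24 libraries in the series. The other libraries were 10 of single Adn-Lpin1-/- mice and 4 of pooled RNA, 1 for each group, and the pools were left out. All mice were male, on a C57BL/6J background, and 8 weeks old when the diets began. The LFD had 10% and the HFD 60% of kcal from fat, and the LFD was matched to the HFD for sucrose. WT mice were littermates that carried both floxed alleles of Lpin1 but no Cre, and the Adn-Lpin1-/- mice that serve below as a second genotype carried Cre under the adiponectin promoter, which deletes lipin 1 in adipocytes. The sample labels give 16 weeks on the diets whereas the methods of the study give 5 weeks, so the length of feeding was not settled here. The mice were fasted for 4 hours before the livers were taken.

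The liver makes fatty acids from sugar when the diet is rich in carbohydrate, under the control of insulin and of the transcription factors SREBP-1c and ChREBP. When the diet delivers fat itself, this synthesis is known to be held back, and fatty acids that reach hepatocytes bind the nuclear receptor PPAR alpha, which turns on uptake, peroxisomal and mitochondrial oxidation, and omega-hydroxylation by Cyp4a enzymes. Patatin-like phospholipase domain (PNPLA) proteins act on the triglycerides of lipid droplets, and fatty acid binding proteins (FABP) carry fatty acids within the cell.

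Each library held between 36260187 and 45999456 counts on the LFD (median 40777580) and between 54036184 and 62249701 on the HFD (median 57124312), so that depth did not overlap between the diets and its median was 1.4 times as high on the HFD. Summed markers of hepatocytes were far above those of every other cell type in all 10 WT livers, with medians of 131290 counts scaled to library size (CPM) on the LFD and 135790 on the HFD. Markers of mesothelium, the surface lining of the organ, summed to between 1.79 and 3.57 CPM on the LFD and between 4.78 and 8.70 on the HFD, without overlap, and those of stellate cells and fibroblasts to between 105 and 207 on the LFD and between 186 and 269 on the HFD. Of 14 lists of cell type markers, 1 held a called gene (Cd9, below). The part of other cell types in the results was not tested, and in whole liver a change in the number of cells of a type cannot be told from a change in RNA per cell. Mouse 5 of the LFD scored 10.4 on the first principal component of the 10 WT mice (25.8% of the variance), among the HFD mice and away from the other LFD mice, which scored between -17.4 and -14.2. Mouse 5 of the HFD scored -5.88, whereas the other HFD mice scored between 9.16 and 22.3. On the 321 genes called by diet in Adn-Lpin1-/- mice, which were called from the mice of that genotype, both of these mice lay with their labelled diet, mouse 5 of the LFD at -0.18 and mouse 5 of the HFD at 0.12 in mean log2 deviation toward the HFD direction, beside ranges of -0.26 to -0.072 for the other LFD mice and 0.10 to 0.23 for the other HFD mice.

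Of 13052 genes tested, 144 (1.1%) differed between the diets in WT liver at an adjusted p of 0.05 or less by the quasi-likelihood test of edgeR, adjusted after Benjamini-Hochberg over all these genes. Of these, 56 (0.429% of the genes tested) rose and 88 (0.674%) fell on the HFD. The falls were the larger changes, with 25 genes at least 2-fold lower and 5 at least 2-fold higher, and 77 of the 144 differed by less than 1.5-fold. For 5 of the 144, Pnpla5 (below) among them, no HFD mouse exceeded 1 CPM, and for 0 of them no LFD mouse did. Such genes entered the test only through mice of other groups, and the part of this filter in the larger falls was not tested. The median log2 fold change (HFD minus LFD) was 0.41 over the genes that rose and -0.64 over those that fell, beside 0.0028 over all genes tested. In 118 of the 144 genes the 5 HFD mice did not overlap with the 5 LFD mice, as in 487 of all genes tested (3.73%). At an unadjusted p of less than 0.05, 2059 genes (15.8%) differed. By DESeq2 400 genes (3.06%) were called, and by voom with quality weights 670 (5.13%). The number of calls rested on single mice. It was 70, 64, 59 and 289 without mouse 1, 2, 4 or 5 of the LFD, and 95, 65, 55 and 91 without mouse 1, 2, 3 or 4 of the HFD, beside 111 without mouse 3 of the LFD and 177 without mouse 5 of the HFD. A total of 41 genes (16 higher, 25 lower) were called in all 10 fits that left out 1 mouse. Among the called genes named below, Mup21 was called in 1 of these fits, Cyp2j5, Mgst3, Ugt2b1, Rplp0, Cd9 and H2-Q7 in 2, Aatk and Rarres1 in 3, and Pnpla5, Gm42418, Hdc, Mif, Nat8f5, Pde1a and Prlr in 4.

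**Figure D1:**
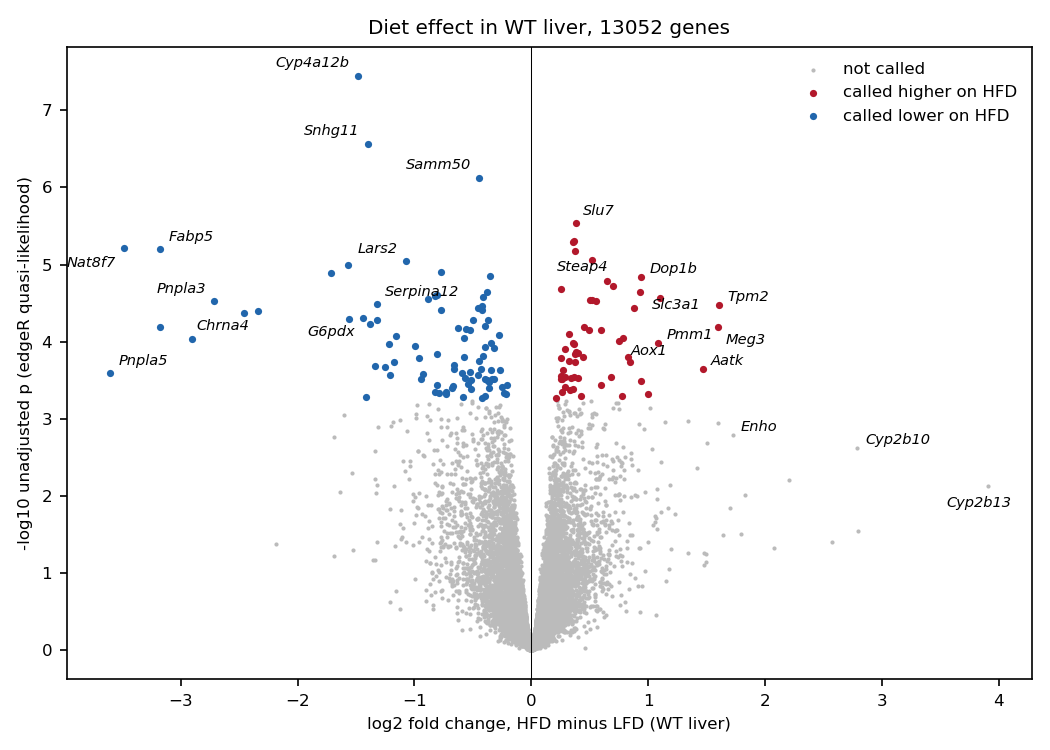
Log2 fold change of each of 13052 genes in WT liver (x axis, HFD minus LFD, 5 mice each) against the negative log10 of the unadjusted p of edgeR's quasi-likelihood test (y axis). The 56 genes called higher are red and the 88 called lower are blue, and the called genes reach further to the left (Pnpla5 at -3.6, under 1 CPM in every HFD mouse) than to the right (Tpm2 at 1.6).

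Among called genes with a mean above 10 CPM in either group, Fabp5 fell the most (ENSMUSG00000027533, chromosome 3, 10012548 to 10016607 of GRCm38). It encodes a fatty acid binding protein better known from skin and macrophages than from liver. Its CPM in the LFD mice 1 to 5 were 54.6, 208, 48.7, 142 and 69.8, and in the HFD mice 7.2, 8.35, 8.32, 11.6 and 22.5. Every LFD mouse was above every HFD mouse, and mice 2 and 4 were the highest on the LFD. The mean fell 9.03-fold, from 105 ± 68.8 to 11.6 ± 6.31 CPM (SD, n = 5), a log2 fold change of -3.17 (SE 0.52, edgeR adjusted p = 0.00959). For this and every other gene whose groups did not overlap, the two-sided exact permutation test gave p = 0.00794, the smallest that 5 mice against 5 allow. The processed pseudogenes Gm6166 and Gm14328, whose transcripts are 98.3% and 97.3% identical to that of Fabp5, fell by 3.18 and 2.90 on the log2 scale and reads of the 3 genes may be split between them. Fabp5 was the only called gene of 20 tested genes of fatty acid uptake and binding (median 0.037). In this list 2 genes were higher and 3 lower at an unadjusted p of less than 0.05, beside 7.52% and 8.25% of all genes tested. Voom with quality weights and DESeq2 each called 2, beside 5.13% and 3.06% of all genes.

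A run of 3 neighbouring genes on chromosome 15 fell together. Pnpla3 (ENSMUSG00000041653, chromosome 15, 84167816 to 84189512), a lipase and transacylase of lipid droplets that is a target of SREBP-1c, was at 3.89, 10.3, 2.92, 5.86 and 9.12 CPM in the LFD mice and 0.821, 1.2, 1.28, 1.23 and 0.377 CPM in the HFD mice. The groups did not overlap, and the mean fell 6.56-fold, from 6.42 ± 3.22 to 0.982 ± 0.385 CPM (SD, n = 5 each; log2 fold change -2.71, SE 0.51, edgeR adjusted p = 0.0128). Pnpla5 (ENSMUSG00000018868, chromosome 15, 84112621 to 84123175), a related lipase on the opposite strand, had 15 to 70 counts in an LFD mouse and 0 to 10 in an HFD mouse. This was 0.412, 1.57, 0.447, 1.09 and 1.18 CPM on the LFD and 0.0182, 0.146, 0, 0.192 and 0.0342 CPM on the HFD, with no overlap (log2 fold change -3.6, SE 0.81, edgeR adjusted p = 0.0345). As every HFD mouse was under 1 CPM, Pnpla5 entered the test only through mice of other groups, and its fall rests on few counts. Samm50 (ENSMUSG00000022437, chromosome 15, 84192233 to 84214303), which builds the sorting and assembly machinery of the outer mitochondrial membrane, starts just past the end of Pnpla3. Its change was small, with little spread between mice, from 101, 113, 104, 116 and 117 CPM on the LFD to 80.5, 83.5, 76.1, 84.3 and 80.5 CPM on the HFD (log2 fold change -0.44, SE 0.063, edgeR adjusted p = 0.00325). The next tested genes outward did not pass the test: Scube1 was at a log2 fold change of 0.55 (edgeR adjusted p = 0.653) and Parvb at 0.19 (edgeR adjusted p = 0.734). Pnpla5 and Samm50, like the 2 genes beside them, were chosen for description after their values were seen.

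The 250 bases before the RefSeq start of each of the 3 genes are shown because the genes lie side by side and fell together (RefSeq, GRCm38.p6). Capitals mark the E-box CACGTG and the CCAAT box on either strand (CCAAT or ATTGG), 2 motifs of lipogenic promoters that do not overlap each other. Pnpla5 is read on the minus strand at chr15:84123176-84123425, Pnpla3 on the plus strand at chr15:84167566-84167815, and Samm50 on the plus strand at chr15:84191990-84192239.
Pnpla5: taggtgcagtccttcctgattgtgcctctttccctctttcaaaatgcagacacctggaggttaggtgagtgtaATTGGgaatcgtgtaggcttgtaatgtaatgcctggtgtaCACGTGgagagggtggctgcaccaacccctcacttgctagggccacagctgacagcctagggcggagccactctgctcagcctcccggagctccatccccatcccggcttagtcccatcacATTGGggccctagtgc
Pnpla3: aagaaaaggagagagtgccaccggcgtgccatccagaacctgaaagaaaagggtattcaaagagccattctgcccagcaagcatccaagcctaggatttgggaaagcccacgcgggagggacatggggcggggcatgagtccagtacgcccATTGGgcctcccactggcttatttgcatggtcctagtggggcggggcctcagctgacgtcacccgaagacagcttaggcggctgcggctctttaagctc
Samm50: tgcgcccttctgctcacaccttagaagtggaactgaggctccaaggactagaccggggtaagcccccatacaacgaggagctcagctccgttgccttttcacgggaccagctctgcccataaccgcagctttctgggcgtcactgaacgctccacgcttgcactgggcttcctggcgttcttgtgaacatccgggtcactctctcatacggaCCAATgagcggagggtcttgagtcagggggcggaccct
The window of Pnpla5 held 1 E-box and 2 CCAAT boxes, and those of Pnpla3 and Samm50 held 1 CCAAT box each. The sterol regulatory element, searched as TCACNCCAC on both strands, had no match in the 3 windows. Among all 32851 mouse promoter windows of this length, 6.02% held the E-box, 33.8% the CCAAT box and 1.05% the sterol element. Among the 66 windows of genes called lower, 6.06% held the E-box and 37.9% the CCAAT box, and among the 46 windows of genes called higher, 15.2% and 34.8%, beside 9.92% and 40.5% of the 9692 windows of tested genes.

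Most genes listed under fatty acid synthesis had a log2 fold change below 0. The 2 called members, Pnpla3 and G6pdx, are not themselves synthesis or desaturation enzymes. Of 21 tested members of a list of synthesis and desaturation genes, 2 fell (Pnpla3, above, and G6pdx), none rose, and 19 had a log2 fold change below 0, with a median of -0.31 beside 0.0028 over all genes tested. At an unadjusted p of less than 0.05, 7 of the 21 were lower and 1 was higher, as were 8.25% and 7.52% of all genes tested, and voom with quality weights called 4 and DESeq2 3. G6pdx (ENSMUSG00000031400, chromosome X, 74409483 to 74429194), glucose-6-phosphate dehydrogenase, supplies NADPH from the pentose phosphate pathway. It was at 6.38, 16.5, 6.05, 13.8 and 12.2 CPM in the LFD mice and 4.38, 3.33, 3.87, 4.81 and 3.9 CPM in the HFD mice, with no overlap and a narrow range on the HFD. Its mean fell 2.71-fold (log2 fold change -1.44, SE 0.28, edgeR adjusted p = 0.0157). The main enzymes of the pathway did not pass the test. Scd1, the delta-9 desaturase, ranged over 7937 to 23056 CPM on the LFD and 4505 to 13242 on the HFD (log2 fold change -0.99, edgeR adjusted p = 0.17). Malic enzyme Me1 was at a log2 fold change of -0.88 (edgeR adjusted p = 0.225), Acacb at -0.77 (adjusted p = 0.289), Elovl6 at -0.70 without overlap (adjusted p = 0.182) and Acss2 at -0.68 (adjusted p = 0.193). Fasn, fatty acid synthase, averaged 671 ± 259 CPM on the LFD and 577 ± 151 CPM on the HFD (SD, n = 5 each), and the groups overlapped widely (log2 fold change -0.22, SE 0.39, edgeR adjusted p = 0.838). Mid1ip1, which promotes polymerization of acetyl-CoA carboxylase, went the other way at 0.74 without overlap (edgeR adjusted p = 0.0539). None of 14 regulators of lipogenesis and sterol synthesis was called by edgeR (median 0.021; 3 at an unadjusted p of less than 0.05, 2 called by voom with quality weights, 0 by DESeq2). The single genes of this paragraph other than Pnpla3 and G6pdx were chosen after their values were seen.

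**Figure D2:**
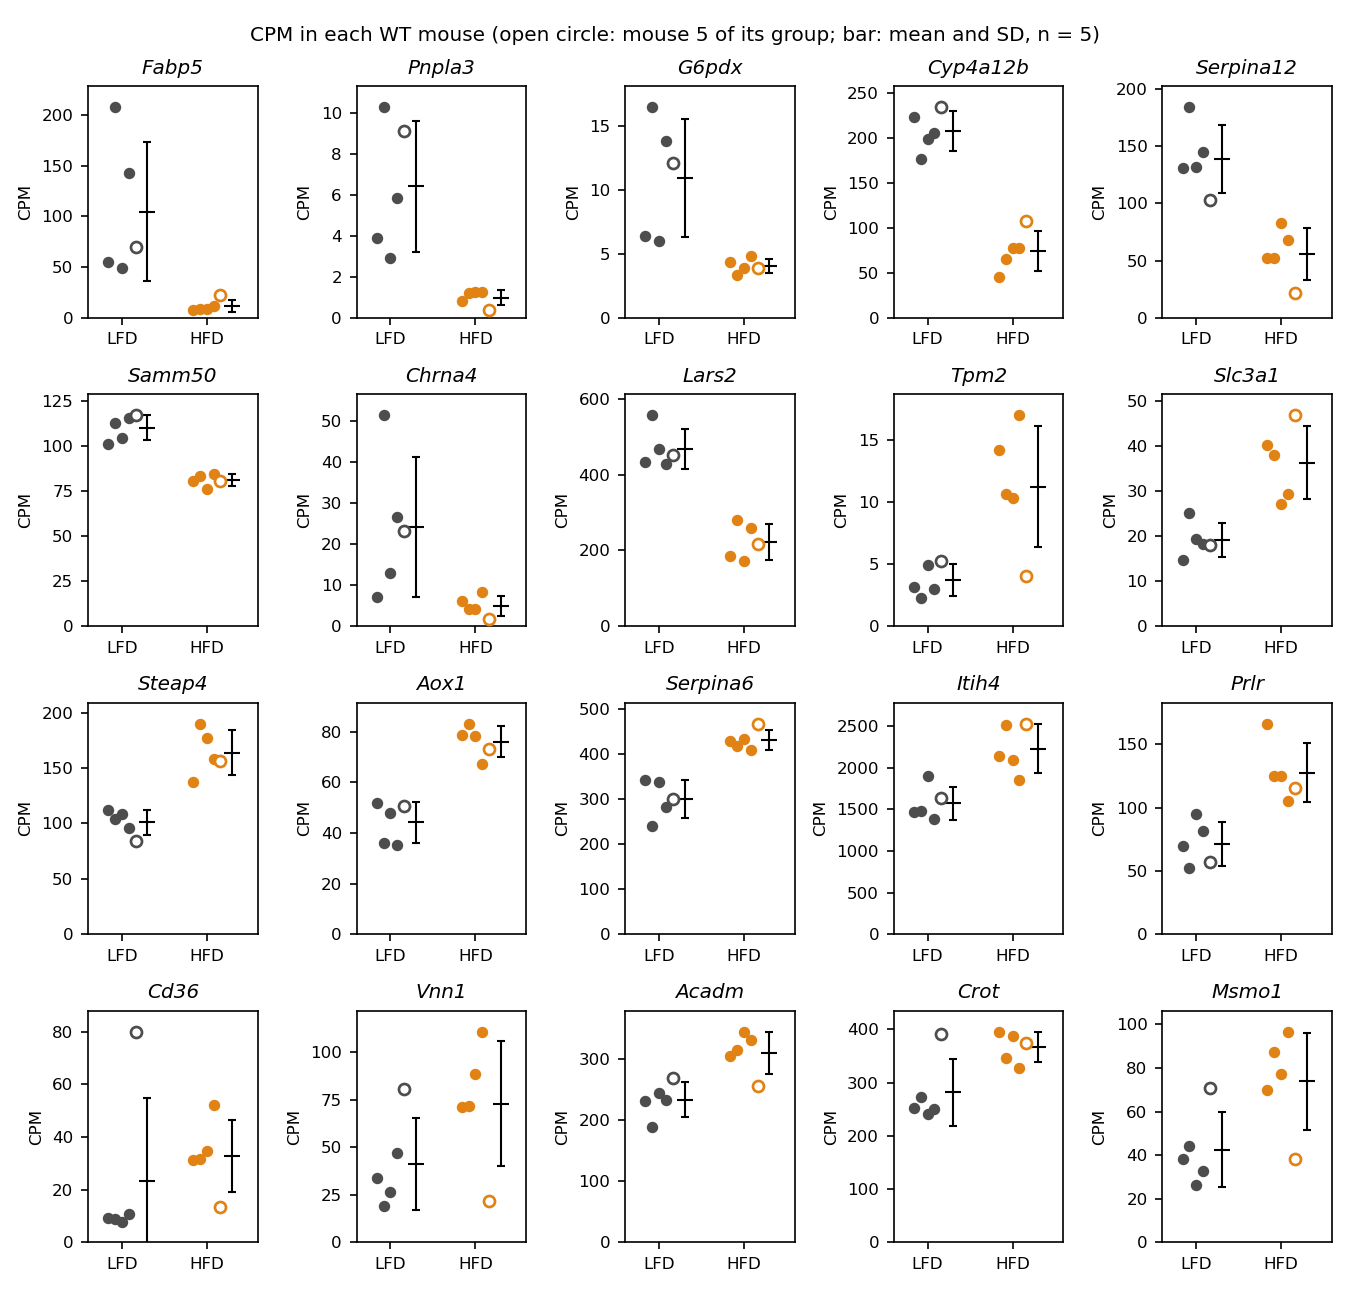
CPM (y axes, from 0) of 20 genes in each WT mouse on the LFD (grey) and HFD (orange), with the mean and SD of 5 mice beside the points and mouse 5 of each group drawn as an open circle. Fabp5, Pnpla3, G6pdx, Cyp4a12b, Serpina12, Samm50 and Lars2 were lower in every HFD mouse, and in the bottom row mouse 5 of the LFD was at 79.9 CPM for Cd36 where the other LFD mice were at 7.56 to 10.7 (its SD bar reaches below 0 and is cut at the axis).

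Cyp4a12b had the lowest adjusted p of all genes. The gene (ENSMUSG00000078597, chromosome 4, 115411624 to 115439034) encodes a fatty acid omega-hydroxylase that is abundant in male liver. It was at 223, 176, 198, 205 and 234 CPM in the LFD mice and 45, 64.9, 77, 77.5 and 107 CPM in the HFD mice, so that the highest HFD mouse was below the lowest LFD mouse by a wide gap. The mean fell 2.79-fold, from 207 ± 22.5 to 74.3 ± 22.6 CPM (SD, n = 5; log2 fold change -1.48, SE 0.17, edgeR adjusted p = 0.000465), and it was called under every alternative tried. Its neighbour Cyp4a12a, 98.3% identical in transcript sequence, was at 273 to 475 CPM on the LFD and 93.4 to 257 on the HFD without overlap (log2 fold change -0.98, edgeR adjusted p = 0.055), and reads could be split between the pair in counting (Cyp4a12a was chosen after its values were seen). Cyp4a12b was the only called gene among 24 tested genes of peroxisomal and microsomal fatty acid oxidation (median 0.0093). In that list 1 gene was higher and 2 were lower at an unadjusted p of less than 0.05, beside 7.52% and 8.25% of all genes tested. Voom with quality weights and DESeq2 each called 3, beside 5.13% and 3.06% of all genes.

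Genes that PPAR alpha is known to turn on were not called as a group in WT liver, and the values of the genes below depended on the 2 mice that lay apart, those of Crot mainly on mouse 5 of the LFD. None of 24 genes of mitochondrial fatty acid oxidation and ketogenesis was called (20 of 24 above 0, median 0.070; 2 at an unadjusted p of less than 0.05, 2 called by voom with quality weights, 1 by DESeq2). None of 16 PPAR regulators and general targets was called (median 0.088; 4 at an unadjusted p of less than 0.05, 2 called by voom with quality weights, 1 by DESeq2). Cd36, a fatty acid transporter, was at 9.32, 8.75, 7.56, 10.7 and 79.9 CPM in the LFD mice and 31.5, 31.6, 34.8, 52.1 and 13.5 CPM in the HFD mice. The first 4 mice of each diet did not overlap, while mouse 5 of the LFD was above every HFD mouse and mouse 5 of the HFD was below the other HFD mice (log2 fold change 0.49, SE 0.61, edgeR adjusted p = 0.751). The omega-hydroxylase Cyp4a14 was at 74.5, 5.62, 62.3, 95.4 and 286 CPM on the LFD and 558, 198, 169, 522 and 29.8 CPM on the HFD (log2 fold change 1.5, edgeR adjusted p = 0.334), again with the fifth mouse of each diet on the side of the other. The pantetheinase Vnn1 was at 33.8, 19.3, 26.4, 47.1 and 80.5 CPM and 71.3, 72, 88.7, 111 and 21.6 CPM in the same order of diets (log2 fold change 0.82, edgeR adjusted p = 0.284). Acadm, medium-chain acyl-CoA dehydrogenase, ranged over 189.6 to 269 CPM on the LFD and 256 to 345 on the HFD (log2 fold change 0.41, edgeR adjusted p = 0.0573), and Crot, carnitine octanoyltransferase of peroxisomes, over 241 to 391 and 328 to 395 (log2 fold change 0.38, edgeR adjusted p = 0.0759). With both of these mice left out, a setting chosen after seeing the data that removes the mice nearest to the other diet and so raises calls by its construction, 468 genes (3.6%) were called (243 higher, 225 lower) and 131 of the 144 calls were kept. Cd36 was then at 2.05 (SE 0.46, edgeR adjusted p = 0.0224), Vnn1 at 1.44 (adjusted p = 0.0104), Cyp4a14 at 2.61 (adjusted p = 0.0417), Acadm at 0.53 (adjusted p = 0.0104) and Crot at 0.52 (adjusted p = 0.00191). These 5 genes were chosen after their values were seen.

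Values of cholesterol synthesis genes depended on these 2 mice as well. None of 23 genes was called, though 19 of 23 were above 0 (median 0.22) and 6 were higher and 0 lower at an unadjusted p of less than 0.05, with 4 called by voom with quality weights and 0 by DESeq2. Msmo1, methylsterol monooxygenase, was at 38.5, 44.2, 26.4, 32.7 and 71.1 CPM in the LFD mice and 70.0, 87.6, 77.1, 96.6 and 38.2 CPM in the HFD mice (log2 fold change 0.79, SE 0.26, edgeR adjusted p = 0.141). Hmgcs1, HMG-CoA synthase, was at 61.9, 75.7, 50.8, 48.3 and 156 CPM and 135, 136, 145, 198 and 51.4 CPM (log2 fold change 0.76, SE 0.36, edgeR adjusted p = 0.312). In both genes mouse 5 of the LFD was highest of its group and mouse 5 of the HFD lowest of its group. Without these 2 mice, where 3.6% of all genes were called, 5 of the 23 were called, all higher, with a list median of 0.40 (Msmo1 1.22, edgeR adjusted p = 0.00642; Hmgcs1 1.37, adjusted p = 0.0164). The list median ranged from 0.092 to 0.31 with 1 mouse left out. Idi1 and Mvk, the other members with a named value here, were at 1.07 and 0.56 with all mice (edgeR adjusted p = 0.158 and 0.156). All 4 were chosen after their values were seen.

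Serpina12 (ENSMUSG00000041567, chromosome 12, 104028769 to 104044443), which encodes vaspin, a serpin known as an insulin-sensitizing adipokine, was at 131, 184, 132, 145 and 103 CPM on the LFD and 52.4, 52.6, 83, 67.9 and 22 CPM on the HFD. The groups did not overlap, and the mean fell 2.5-fold (log2 fold change -1.32, SE 0.25, edgeR adjusted p = 0.0136). It was the only called gene of 27 hepatokines and secreted metabolic factors (median -0.089). In that list 1 gene was higher and 1 lower at an unadjusted p of less than 0.05, and voom with quality weights called 1 and DESeq2 2. Enho, which encodes adropin, was at 5.61, 9.09, 8.19, 4.22 and 1.95 CPM and 11.5, 18.3, 18.8, 7.91 and 39.4 CPM and did not pass (log2 fold change 1.72, SE 0.47, edgeR adjusted p = 0.0782, chosen after its values were seen). Among 27 acute-phase genes 2 rose and none fell, with a median of 0.25. At an unadjusted p of less than 0.05, 9 were higher and 2 lower, beside 7.52% and 8.25% of all genes tested. Voom with quality weights called 4 and DESeq2 3, beside 5.13% and 3.06% of all genes. Steap4 (ENSMUSG00000012428, chromosome 5, 7960472 to 7982213), a metalloreductase induced by inflammatory and nutrient signals, rose from 112, 104, 109, 95.8 and 84.2 CPM to 137, 190.2, 177, 158 and 156 CPM without overlap (log2 fold change 0.70, SE 0.12, edgeR adjusted p = 0.0128). Itih4, an inter-alpha-trypsin inhibitor heavy chain abundant in plasma, rose from 1570.3 ± 202 to 2226 ± 293 CPM (SD, n = 5; log2 fold change 0.50, SE 0.094, edgeR adjusted p = 0.0128), with 1 overlap between the highest LFD and the lowest HFD mouse. Serpina6 (ENSMUSG00000060807, chromosome 12, 103646630 to 103657212), corticosteroid-binding globulin, rose from 342, 240.3, 338, 282 and 300.1 CPM to 429, 419, 433, 409 and 469 CPM without overlap (log2 fold change 0.52, SE 0.10, edgeR adjusted p = 0.0128). Serpina6 is not a member of the acute-phase list. Other members of that list were not called, such as, chosen after their values were seen, Saa4 at 0.56 (edgeR adjusted p = 0.104) and Orm1 at -0.43 (adjusted p = 0.17).

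Oxidation and conjugation of drugs and steroids gave 6 called genes over 3 lists, of phase II conjugation, cytochrome P450 and NRF2 antioxidant defence. Of all genes tested, 1.1% were called. At an unadjusted p of less than 0.05, 8 of 37 conjugation genes were higher and 2 lower, beside 7.52% and 8.25% of all genes tested. The P450 list had 9 of 38 higher and 6 lower, and the NRF2 list 6 of 19 higher and 0 lower. Voom with quality weights called 4, 5 and 6 in the same order of lists and DESeq2 5, 4 and 3, beside 5.13% and 3.06% of all genes. Aox1, the called member of the last list, and Aox3, which is in none of them, are aldehyde oxidases that lie next to each other on chromosome 1 (58029931 to 58106413 and 58113130 to 58200698), and both rose. Aox1 was at 51.8, 36.1, 47.7, 35.1 and 50.8 CPM on the LFD and 78.7, 83.2, 78.1, 67.3 and 73.1 CPM on the HFD, without overlap (log2 fold change 0.78, SE 0.16, edgeR adjusted p = 0.020). Aox3, the main aldehyde oxidase of mouse liver, was at 408, 386, 529, 299 and 307 and 645, 593, 709, 509 and 791 CPM, with a small overlap (log2 fold change 0.75, SE 0.16, edgeR adjusted p = 0.0211). Of 37 phase II conjugation genes, 3 rose and 1 fell, with a median of -0.016. The glycosyltransferase Ugt3a1 rose by 0.65 (edgeR adjusted p = 0.0124), the microsomal glutathione transferase Mgst3 by 0.68 (adjusted p = 0.0354) and the sulfotransferase Sult1b1 by 0.37 (adjusted p = 0.0256) on the log2 scale, whereas the glucuronosyltransferase Ugt2b1 was lower, at -0.67 (adjusted p = 0.0402). Of 38 genes of cytochrome P450 families 1 to 3 and their receptors, only the epoxygenase Cyp2j5 was called, with a rise of 0.29 from 458 ± 29.6 to 559.6 ± 45.7 CPM (SD, n = 5; edgeR adjusted p = 0.0354). The Cyp2b genes, known targets of the receptor CAR, included the largest fold changes of this list. Cyp2b13 had the highest, 3.91, and was not called. It was at 0.123 CPM in mouse 5 of the LFD and at 0 in the other LFD mice, so its fold change rests on LFD values near 0. Cyp2b10 was at 0.695, 0.045, 0.774, 0.104 and 1.41 CPM on the LFD and 8.08, 5.37, 1.75, 5.49 and 0.0856 CPM on the HFD (log2 fold change 2.79, SE 0.80, edgeR adjusted p = 0.093), and Cyp2b9 at 0.0515, 0.135, 0.179, 0.73 and 13.4 and 51.1, 15, 9.32, 11.8 and 0.274 CPM (log2 fold change 2.57, SE 1.17, edgeR adjusted p = 0.289). In both, mouse 5 of the HFD was low, and in Cyp2b9 mouse 5 of the LFD was at the level of HFD mice. Without mouse 5 of the LFD, Cyp2b9 was at 6.0 (SE 1.44, edgeR adjusted p = 0.0359) and Cyp2b10 at 3.41 (adjusted p = 0.0549). Without mouse 5 of the HFD they were at 2.89 (edgeR adjusted p = 0.193) and 3.11 (adjusted p = 0.026), and without both at 6.32 (adjusted p = 0.0125) and 3.73 (adjusted p = 0.0105). These fits called 289, 177 and 468 genes in the same order, beside 144 with all mice. The mice left out lay nearest to the other diet, so their removal raises calls by its construction and gives no separate support for a rise. Cyp2b9, Cyp2b10 and Cyp2b13 were chosen after their values were seen.

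**Figure D3:**
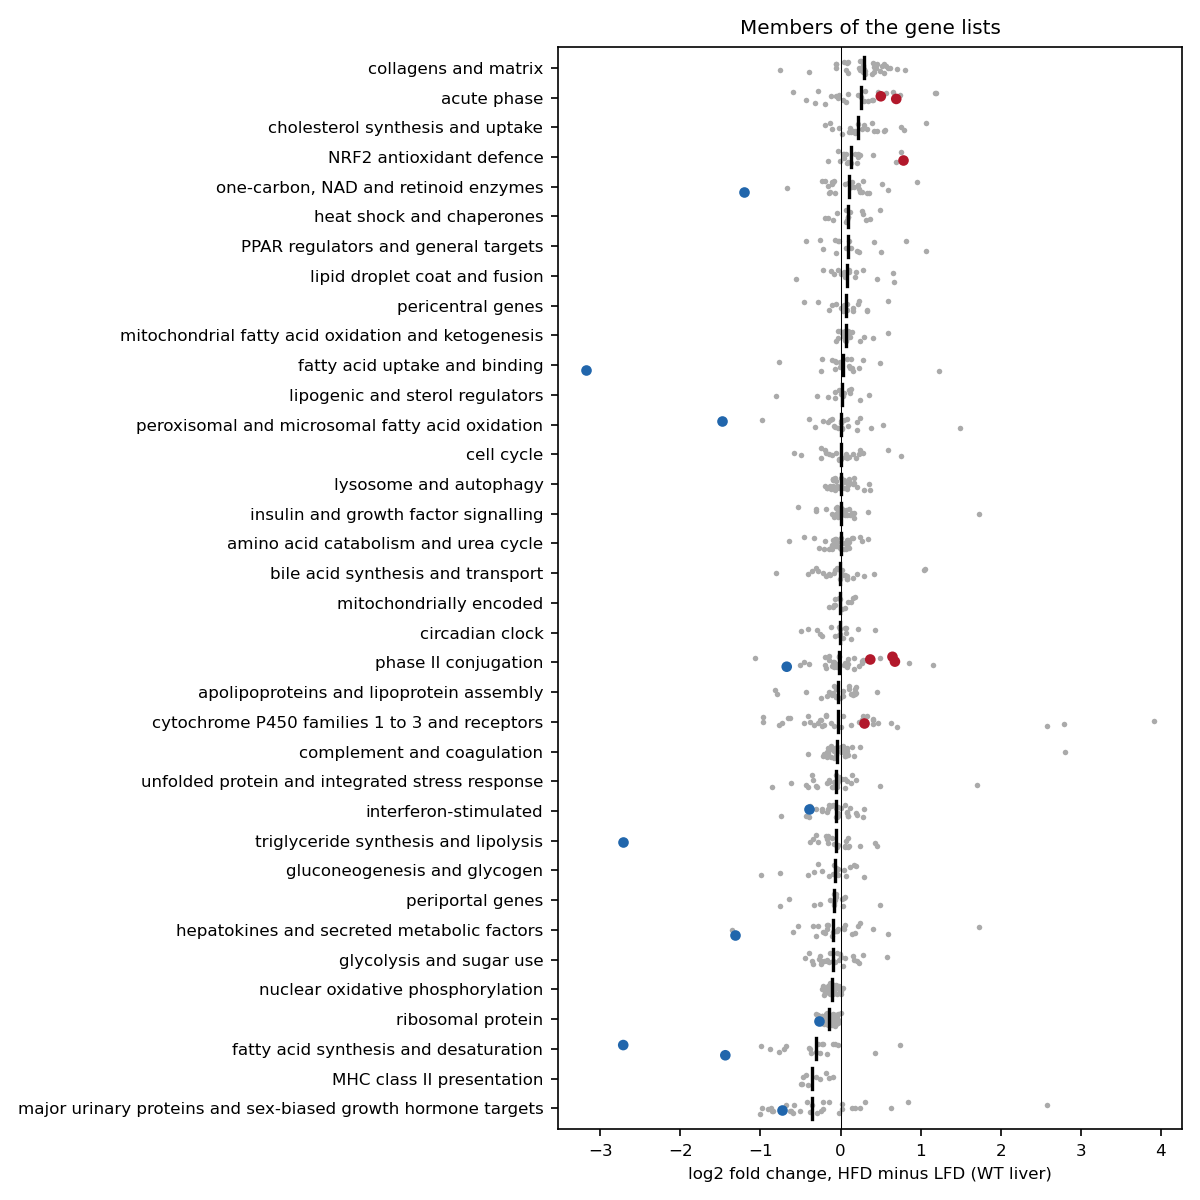
Log2 fold change (x axis, HFD minus LFD in WT liver) of the tested members of 36 gene lists (rows, ordered by median). Grey points were not called, blue points were called lower and red points higher, and black bars are list medians, which run from -0.36 for major urinary proteins and growth hormone targets and for MHC class II presentation to 0.29 for collagens and matrix.

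Major urinary proteins and other sex-biased targets of growth hormone had a median as low as that of MHC class II presentation, the lowest of the 36 gene lists, with 1 call. Of 31 tested major urinary protein and sex-biased genes, 1 fell and none rose, 22 were below 0, and the median was -0.36. Members ran from -1.01 (Mup13) to 2.57 (Cyp2b9), so the median does not stand for a shared direction. In this list 6 genes were lower and 3 higher at an unadjusted p of less than 0.05, beside 8.25% and 7.52% of all genes tested. The diets did not overlap in 6 of the 31, all lower, beside 2.11% of all genes. Voom with quality weights called 4 and DESeq2 3, beside 5.13% and 3.06% of all genes. Mup21, a major urinary protein, fell from 362, 637, 458, 473 and 345 CPM to 219, 269.6, 309, 294 and 284 CPM, without overlap (log2 fold change -0.73, SE 0.17, edgeR adjusted p = 0.0456). Mup20, which encodes the male pheromone darcin, ranged over 3154 to 4633 CPM on the LFD and 2024 to 2931 on the HFD without overlap, and did not pass (log2 fold change -0.60, edgeR adjusted p = 0.202). Mup genes are near-identical in sequence, so that reads of 1 may be counted on another or be lost. Prlr (ENSMUSG00000005268, chromosome 15, 10177238 to 10349180), the prolactin receptor, which is held at different levels in the livers of the sexes, rose from 69.4, 52.4, 94.7, 81.2 and 56.8 CPM to 166, 125, 125, 105 and 116 CPM, without overlap (log2 fold change 0.85, SE 0.18, edgeR adjusted p = 0.0279). Prlr is not a member of the list of major urinary protein and sex-biased genes.

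Several other genes fell. Apart from Rarres1, a member of the list of one-carbon, NAD and retinoid enzymes, those described next belong to none of the gene lists. Chrna4, the alpha 4 subunit of the nicotinic acetylcholine receptor, was at 7.03, 51.4, 12.9, 26.5 and 23.2 CPM on the LFD and 6.0, 4.02, 4.1, 8.18 and 1.64 CPM on the HFD, where only LFD mouse 1 came within the HFD range (log2 fold change -2.34, SE 0.45, edgeR adjusted p = 0.0138, exact permutation p = 0.0159, chosen after its values were seen). Adam11, a disintegrin without protease activity, was at 9.8, 10.1, 24, 13.7 and 22 CPM and 5.42, 5.46, 4.24, 4.33 and 7.36 CPM (log2 fold change -1.57, SE 0.27, edgeR adjusted p = 0.011). Gria3, an AMPA receptor subunit, fell by 1.56 on the log2 scale, from 2.01 ± 0.497 to 0.683 ± 0.199 CPM (SD, n = 5), and the host RNA Snhg11 fell by 1.4, from 10.7 ± 1.88 to 4.05 ± 0.907 CPM (edgeR adjusted p = 0.0157 and 0.00176). The groups of Adam11, Gria3 and Snhg11 did not overlap. The HFD mean of Gria3 was under the 1 CPM limit of the filter, and the part of the filter in its fall was not tested. Hdc, histidine decarboxylase, which makes histamine, was at 33.4, 16.8, 35.7, 26.8 and 14.4 CPM on the LFD and 9.7, 8.94, 10.8, 12.9 and 10.9 CPM on the HFD without overlap (log2 fold change -1.25, SE 0.28, edgeR adjusted p = 0.0315), and Rarres1, a retinoid-responsive carboxypeptidase inhibitor, was at 48.4, 46.4, 44, 57.6 and 95.4 CPM and 18.4, 30.7, 37.7, 28.3 and 11 CPM (log2 fold change -1.21, SE 0.27, edgeR adjusted p = 0.0354). The acetyltransferase-like genes Nat8f7 and Nat8f5, which are neighbours on chromosome 6, fell by 3.48 and 1.34 on the log2 scale (edgeR adjusted p = 0.00959 and 0.0307). The transcript of Nat8f7 is 99.4% identical to that of Nat8f3, so its counts are uncertain. Nat8f7 and Hdc were chosen after their values were seen.

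Of the genes that rose, Tpm2 did so by the largest factor, and a second tropomyosin gene rose with it. Tpm2, beta-tropomyosin of the actin cytoskeleton, was at 3.14, 2.23, 4.94, 2.97 and 5.23 CPM on the LFD and 14.2, 10.6, 10.3, 17 and 4.01 CPM on the HFD. The first 4 HFD mice were all above the LFD mice, and HFD mouse 5 was within their range (log2 fold change 1.6, SE 0.30, edgeR adjusted p = 0.0136, exact permutation p = 0.0238). Tpm3 rose by 0.45 on the log2 scale (edgeR adjusted p = 0.0171), and Tpm3-rs7, 99.1% identical to it in transcript sequence, by 0.88 (edgeR adjusted p = 0.0136). The kinase gene Aatk was at 4.37, 4.45, 6.49, 6.57 and 3.45 CPM on the LFD and 14.4, 11.4, 16.4, 24.3 and 3.3 CPM on the HFD, with HFD mouse 5 below every LFD mouse (log2 fold change 1.47, SE 0.33, edgeR adjusted p = 0.0327, exact permutation p = 0.0556). Slc3a1, the heavy subunit of the cystine transporter, rose 1.9-fold, from 14.7, 25.2, 19.3, 18.3 and 18 CPM to 40.2, 38, 27.2, 29.4 and 46.9 CPM without overlap (log2 fold change 0.93, SE 0.17, edgeR adjusted p = 0.0128), and Prepl, whose gene overlaps its end on the other strand, by 0.36 on the log2 scale (edgeR adjusted p = 0.0213), where reads of the shared end cannot be told apart. Dop1b, a protein of endosomal trafficking, rose 1.92-fold (log2 fold change 0.94, edgeR adjusted p = 0.0118), and on the log2 scale the phosphomannomutase Pmm1 rose by 1.08 (edgeR adjusted p = 0.0212), the phosphodiesterase Pde1a by 0.83 (edgeR adjusted p = 0.0265) and Eif4ebp2, a repressor of cap-dependent translation, by 0.59 (edgeR adjusted p = 0.0171). Ddah1, which degrades asymmetric dimethylarginine, was at 87.7, 98, 95.2, 94.8 and 136 CPM on the LFD and 149, 156, 148, 156 and 141 CPM on the HFD without overlap (log2 fold change 0.55, SE 0.10, edgeR adjusted p = 0.0128). Tpm2, Tpm3, Aatk and Prepl were chosen after their values were seen.

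Changes of less than 1.5-fold made up 77 of the 144 calls. Most called genes described next were among them, but not H2-Q7 or Cd9. Bst2, an interferon-induced antiviral protein and the only called gene of 31 interferon-stimulated genes, fell from 130.2 ± 2.61 to 98.8 ± 10.4 CPM (SD, n = 5; log2 fold change -0.40, SE 0.083, edgeR adjusted p = 0.0223). In that list 4 genes were lower and 0 higher at an unadjusted p of less than 0.05, beside 8.25% and 7.52% of all genes tested. The class I histocompatibility gene H2-Q7, which has close paralogs, was at 97.8, 98.5, 98.8, 106 and 98.9 CPM on the LFD and 63.1, 74.6, 56.6, 68.1 and 53.7 CPM on the HFD (log2 fold change -0.66, edgeR adjusted p = 0.0304). Mif and Ddt encode related cytokines with tautomerase activity and went apart, Mif at -0.36 (edgeR adjusted p = 0.0368) and Ddt at 0.39 (edgeR adjusted p = 0.0249), both without overlap. The splicing factor Slu7 rose from 22.9, 21.3, 23.3, 21.1 and 23 CPM to 29.3, 27.7, 27.5, 28.1 and 33.2 CPM (log2 fold change 0.38, SE 0.06, edgeR adjusted p = 0.00941). Vegfb, an endothelial growth factor tied to fatty acid transport, fell by 0.45 on the log2 scale (edgeR adjusted p = 0.0279), and the tetraspanin Cd9 by 0.59 (edgeR adjusted p = 0.0474). Of 55 ribosomal protein genes, 54 were below 0 with a median of -0.15, and Rplp0 was called (-0.27, edgeR adjusted p = 0.0327). At an unadjusted p of less than 0.05, 22 of the 55 were lower and 0 higher, beside 8.25% and 7.52% of all genes tested. Voom with quality weights called 17 and DESeq2 4, beside 5.13% and 3.06% of all genes. Without mouse 5 of the LFD 10 were called, and without mouse 5 of both diets 18, where 289 and 468 of all genes were called. Leaving these mice out raises calls by its construction. H2-Q7, Mif, Ddt, Slu7 and Vegfb were chosen after their values were seen.

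**Figure D4:**
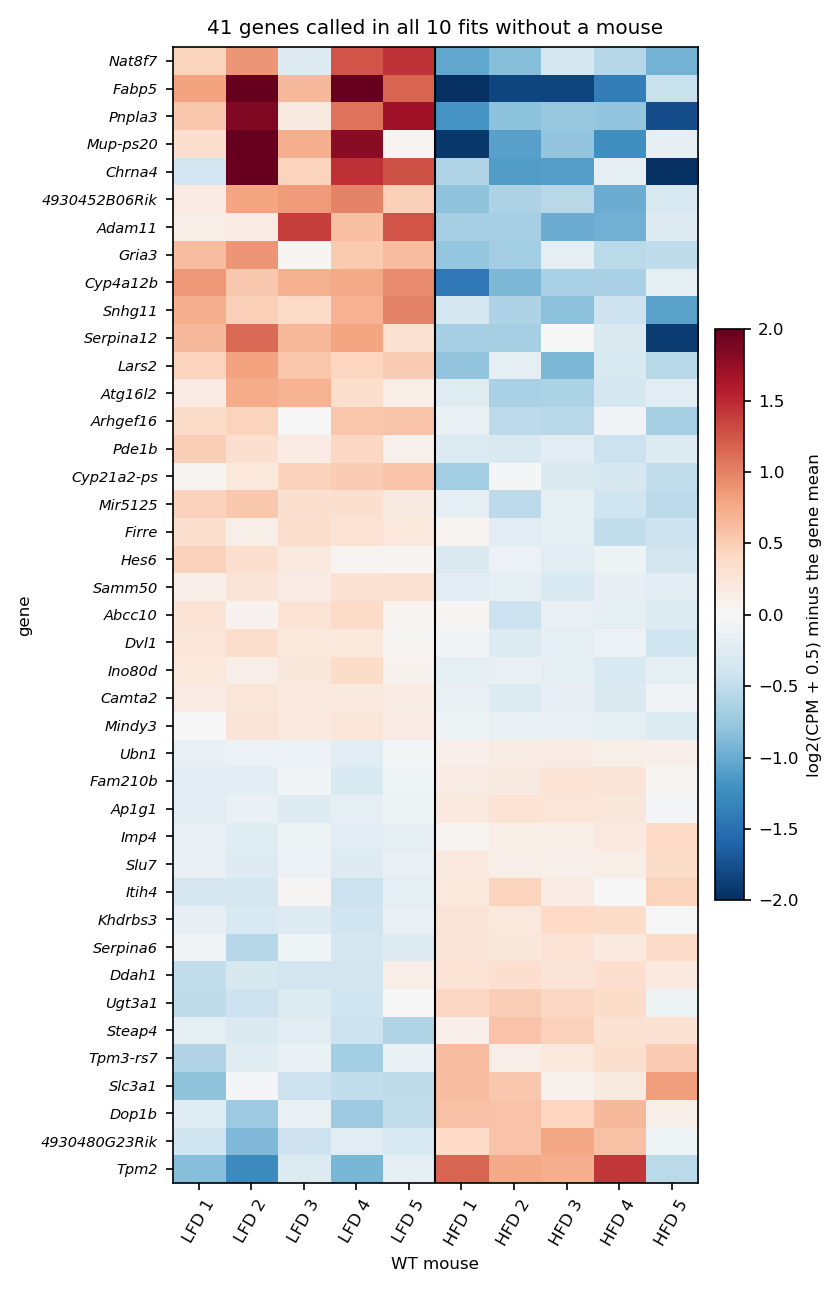
The 41 genes called in all 10 fits that left out 1 mouse (rows, ordered by log2 fold change) in the 10 WT mice (columns), with colour for log2(CPM + 0.5) minus the gene's mean, limited to 2 in either direction. The genes were chosen for a diet difference in these mice, and mouse 5 of the HFD was below the gene mean for Tpm2 (at 4.01 CPM) and lowest of all mice for Chrna4 and Serpina12.

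Many other groups of liver genes held no call. None of 27 genes of glycolysis and sugar use (median -0.099), 20 of gluconeogenesis and glycogen (-0.068), 26 of insulin and growth factor signalling (0.0022), 27 of bile acid synthesis and transport (-0.0030), 26 apolipoproteins and lipoprotein assembly genes (-0.030), 16 lipid droplet coat and fusion genes (0.082) or 42 of amino acid catabolism and the urea cycle (0.00052) was called. The same held for 30 genes of the unfolded protein and integrated stress response (median -0.055), 18 of the circadian clock (-0.012), 37 of complement and coagulation (-0.039), 38 nuclear genes of oxidative phosphorylation (-0.11, 35 below 0), 36 collagens and matrix genes (0.29, 31 above 0) and 23 of the cell cycle (0.0091). It also held for 32 genes of lysosome and autophagy (0.0063), 15 chaperones (0.088), 13 mitochondrially encoded genes (-0.0090), 18 pericentral genes (0.071), 17 periportal genes (-0.077) and 10 genes of MHC class II presentation, all of which were below 0 (-0.36). Among 22 genes of triglyceride synthesis and lipolysis (-0.062) only Pnpla3 was called, among 19 of NRF2 antioxidant defence (0.14) only Aox1, and among 28 one-carbon, NAD and retinoid enzymes (0.11) only Rarres1. Voom with quality weights called 4, 6 and 2 in the same order of lists and DESeq2 3, 3 and 1, beside 5.13% and 3.06% of all genes. Cyp7a1, the rate-limiting enzyme of bile acid synthesis, was at 48.9, 61.1, 64.1, 119.7 and 49.2 CPM on the LFD and 102, 115, 189.8, 133 and 175 CPM on the HFD (log2 fold change 1.06, SE 0.43, edgeR adjusted p = 0.226), and Nr0b2, its repressor SHP, was lower in every HFD mouse (14.8 to 31.4 against 33 to 58.4 CPM) and did not pass across all genes (log2 fold change -0.80, edgeR adjusted p = 0.152). Pparg was at 8.16, 1.84, 4.91, 2.76 and 9.66 CPM on the LFD and 7.4, 15.3, 14.2, 12.2 and 7.93 CPM on the HFD (log2 fold change 1.06, SE 0.41, edgeR adjusted p = 0.212). All 3 were chosen after their values were seen. Over the 23 gene lists in which edgeR called no gene, 78 of 527 distinct members (14.8%) had an unadjusted p of less than 0.05, near the 15.8% of all genes tested, limma's voom with quality weights made 35 calls in 17 of the lists and DESeq2 11 calls in 9. The lists within this share differed. At that p, 12 of 38 nuclear oxidative phosphorylation genes were lower and 0 higher, and 7 of 27 glycolysis genes were lower and 1 higher. Of all genes tested, 8.25% were lower and 7.52% higher. In the cell cycle, MHC class II and mitochondrially encoded lists, 0 genes reached it.

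In some genes the WT LFD mice lay apart from every other mouse of the study. In 48 of the genes tested (0.368%) the 5 WT LFD mice lay outside the range of all 15 other single mice, and 13 of these were among the 144 called, which is no excess to be read, since called genes were chosen for a gap between the WT diets. Gm42418 (chromosome 17, 39846958 to 39848788), which RefSeq lists as an 18S ribosomal RNA-related pseudogene, was at 2052, 2447, 2591, 2675 and 2244 CPM in the LFD mice and 1511, 1719, 1447, 1775 and 1624 CPM in the HFD mice (log2 fold change -0.57, SE 0.12, edgeR adjusted p = 0.0265). Lars2, mitochondrial leucyl-tRNA synthetase, was at 433, 557, 468, 427 and 452 and 184, 279, 172, 259 and 216 CPM (log2 fold change -1.08, SE 0.18, edgeR adjusted p = 0.0107), and Gm15564, which matches Lars2 at 98.6% over 72 bases, at a log2 fold change of -1.22 (edgeR adjusted p = 0.0213, chosen after its values were seen). The pseudogene Mup-ps20 fell from 5.74, 23, 7.71, 16.8 and 4.61 CPM to 0.802, 1.82, 2.37, 1.62 and 3.92 CPM (log2 fold change -2.46, SE 0.47, edgeR adjusted p = 0.0141). The imprinted long noncoding RNA Meg3 went the other way, from 0.952, 0.967, 0.953, 1.02 and 0.518 CPM to 1.57, 2.11, 4.43, 1.19 and 3.99 CPM (log2 fold change 1.59, SE 0.32, edgeR adjusted p = 0.0171). In Adn-Lpin1-/- mice 2 of the 13 were called by diet, and Lars2 was at 0.30, Gm42418 at -0.078, Mup-ps20 at -0.20 and Meg3 at -0.088 there. The WT LFD libraries were also the shallowest, with at most 45999456 counts beside at least 51095146 in each of the 15 others, so depth and this group cannot be told apart, and annotated rRNA held 0.354% to 0.465% of WT LFD counts and 0.361% to 0.440% of WT HFD counts. With all libraries thinned to 36260187 counts, 134 genes were called, 128 of them among the 144.

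The same contrast in Adn-Lpin1-/- mice shares no library with the WT contrast, and both come from 1 fit. There, 321 genes (2.46%) were called, 156 higher (1.2%) and 165 lower (1.26%). Of the 144 WT genes, 128 (88.9%) had the same sign in Adn-Lpin1-/- mice, as had 63.3% of all genes tested, and 52 were called in both, all in the same direction (36.1% of the WT calls and 16.2% of the Adn-Lpin1-/- calls). Several of the large falls were also called there. Fabp5 was at -4.48 in Adn-Lpin1-/- mice (edgeR adjusted p = 0.000173), Chrna4 at -4.01 (adjusted p = 0.000116), Pnpla5 at -3.74 (adjusted p = 0.00665), Pnpla3 at -2.36 (adjusted p = 0.0122), Cyp4a12b at -1.72 (adjusted p = 4.43e-05) and Samm50 at -0.57 (adjusted p = 7.26e-05). Among the rises, Dop1b was at 1.03 (edgeR adjusted p = 0.00191), Tpm2 at 1.16 (adjusted p = 0.033), Serpina6 at 0.51 (adjusted p = 0.00754) and Itih4 at 0.47 (adjusted p = 0.0102). Median log2 fold changes in Adn-Lpin1-/- mice were 0.31 over the 56 WT genes that rose and -0.27 over the 88 that fell. The median of the fatty acid synthesis list was -0.31 in WT and -0.85 in Adn-Lpin1-/- mice, and that of the cholesterol list 0.22 and -0.47. The 2 lists of lowest median in WT had a median above 0 in Adn-Lpin1-/- mice. Major urinary proteins and sex-biased genes were at -0.36 in WT and 0.22 there, with 5 called higher and 1 lower. MHC class II presentation was at -0.36 in WT and 0.65 there, with 0 called. These differences between list medians were not tested.

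**Figure D5:**
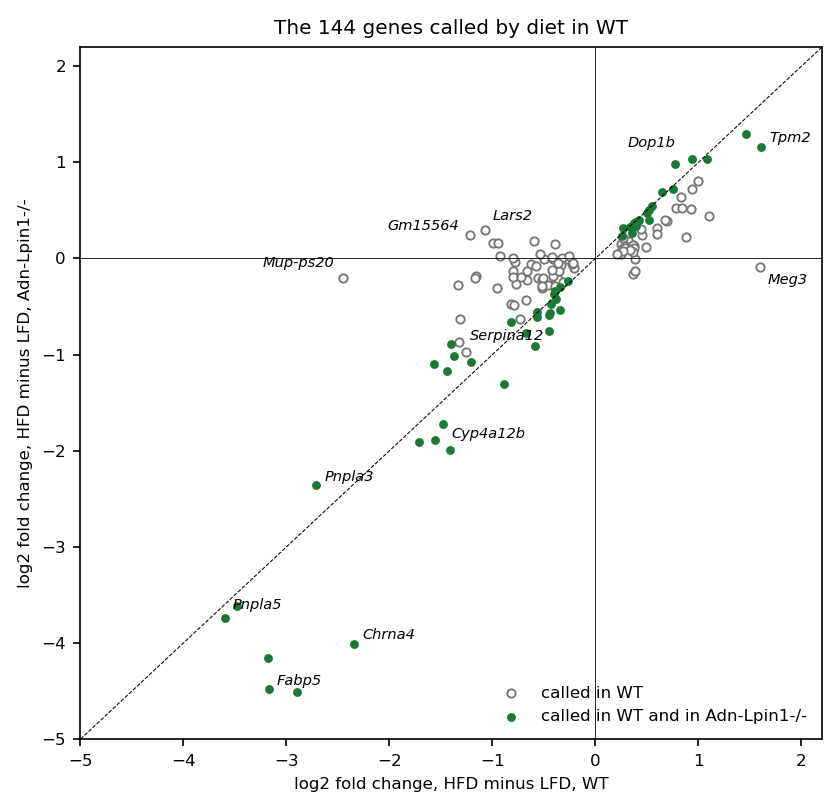
Log2 fold change by diet (HFD minus LFD) of the 144 genes called in WT liver, in WT mice (x axis) and in Adn-Lpin1-/- mice (y axis), 5 mice in each of 4 groups. Filled points were called in both genotypes (52 genes), the dashed line marks equal change, and Lars2 and Gm15564 lie above 0 and Meg3 below 0 on the y axis, on the other side of 0 from their WT values.

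No gene was called for a difference of the diet effect between the genotypes by edgeR's test, where 938 genes (7.19%) had an unadjusted p of less than 0.05 and the lowest adjusted p was 0.287. DESeq2 called 30 genes and voom called 190 once the pools were added to the groups, whereas voom with quality weights on single mice called 0. So no called gene of WT liver was shown by edgeR to respond to fat in WT mice alone. Among the 144 genes, 55 were at an unadjusted p of less than 0.05 for the difference in edgeR's test. Lars2 differed by 1.37 (Adn-Lpin1-/- minus WT, edgeR adjusted p = 0.287), Ddt by -0.52 (edgeR adjusted p = 0.292) and Meg3 by -1.68 (edgeR adjusted p = 0.378). The 144 were chosen by the WT contrast, which enters this difference.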

How the data were processed

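RNA-seq was made from poly(A)-selected liver RNA. Per the methods of the study, the authors demultiplexed with bcl2fastq, aligned reads with STAR 2.5.1a to GRCm38 (Ensembl annotation) and counted uniquely aligned, unambiguous reads with featureCounts 1.4.6-p5 of Subread. Whether counting used strand is not given in the sources used here. The authors deposited for each library raw counts, CPM and RPKM of 41388 genes, and only the counts were used here. Counts of 355 ribosomal RNA genes were left out.

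A gene was tested if 4 or more of the 20 libraries of single mice exceeded 1 CPM (13052 genes). Counts were scaled by TMM and tested with edgeR 4.0.16's quasi-likelihood test over 4 group means, with Benjamini-Hochberg adjustment over all genes tested and a threshold of 0.05. The authors had used limma's voom with quality weights, which was run as an alternative (limma 3.58.1), as was DESeq2 1.42.0. Printed CPM use TMM-scaled library sizes. Single genes were also tested with a two-sided exact permutation test of the mean log2(CPM + 0.5) over all arrangements of 5 against 5 mice. The code was tested on simulated data (R 4.3.3, Python 3.11.15). Gene symbols came from the annotation for 97.3% of genes. Replicates are separate mice as numbered in the labels.

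The comparison and the gene and marker lists were chosen with earlier results of these data known. Genes were named by rule: the 15 called genes with the largest rise and the 15 with the largest fall, given a mean of 1 CPM or more and no overlap between the diets, called list members (at most 6 a list), up to 3 members of highest level in lists with few calls, and the 10 called genes of highest level. Genes outside it are said to be chosen after their values were seen. Depth limits low genes most, and totals are given with the results.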

Additional observations from a re-analysis of the deposited data

Results flagged for a closer look

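For each gene named in the text, Dixon's test asked whether the highest or lowest of the 5 mice of a WT group lay apart from the other 4. This was so in 21 of 224 groups (9.38%), where chance gives about 5%, but many of the genes were chosen after their values were seen, some because mouse 5 stood apart, so this share is no measure of an excess. Of the values, 9 were of mouse 5 of the LFD and were high for their group. They were Cyp2b13, described last, Cd36 at 79.9 CPM, Cyp2b9 at 13.4, Crot at 391, Hmgcs1 at 156, Vldlr at 3.53, Cfd at 2.71, Ddah1 at 136 and Rarres1 at 95.4 CPM. The highest of the other LFD mice were at 10.7, 0.730, 272, 75.7, 1.15, 0.774, 98.0 and 57.6 CPM for these genes in the same order. Cyp2b13 was at 0.123 CPM in this mouse and at 0 in the other LFD mice. Meg3 was low in it at 0.518 CPM where they were at 0.952 to 1.02.

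Mouse 5 of the HFD was high for Fabp5 at 22.5 CPM (others 7.20 to 11.6) and for Asns, asparagine synthetase, at 9.66 CPM (others 0.730 to 2.73), and low for Ugt3a1 at 41.5 CPM (others 57.8 to 62.5). Mouse 1 of the HFD was high for Cyp2b9 at 51.1 CPM, mouse 3 low for Nr0b2 at 14.8 CPM (others 27.5 to 31.4), and mouse 4 high for the mesothelial gene Upk3b at 3.52 CPM (others 1.27 to 1.75). In the other LFD mice, mouse 2 was high for the immunoglobulin gene Ighm at 34.5 CPM (others 3.72 to 10.1) and low for Ddt at 37.9 CPM, mouse 4 was high for Cyp7a1 at 119.7 CPM and for H2-Q7 at 106 CPM, and mouse 1 was high for Scube1 at 0.515 CPM.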

How the results depend on the processing

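Every one of the 144 genes called by diet in WT liver that an alternative still tested kept its sign there, and no named gene reversed under any alternative, but the number of calls moved widely. DESeq2's Wald test called 400 genes (173 higher, 227 lower), voom with quality weights 670 (309 higher, 361 lower) and both included all 144. Voom with the pools as sixth libraries called 1927, of which 50.2% were higher beside 38.9% with edgeR. The pools hold RNA of the same mice and are not independent. With only the 10 WT libraries in the fit, 72 genes were called. With mouse 5 of both diets left out (chosen after seeing the data), 468 were called, of which 51.9% were higher. Leaving out 1 mouse at a time gave 55 to 289 calls. DESeq2's size factors, no filter, edgeR's default filter, ribosomal and mitochondrial genes left out, thinning, and removal of GC or length trends gave between 107 and 173 calls. In Adn-Lpin1-/- mice, DESeq2 called 577 genes and voom with pools 2327, beside 321 by edgeR. For the difference of the diet effect between genotypes, DESeq2 called 30 genes and voom with pools 190, while the other alternatives called none. The cause of these shifts was not tested, except that fewer samples enter the fits that leave libraries out.

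Mouse numbers are shared between the diets. Deviations from the group means of mice with the same number correlated at 0.0067, 0.22, -0.19, 0.0073 and -0.24, and 1 of 5 mice matched its own number best. These values show no clear pairing by number, but they cannot settle it, and the labels do not say what the numbers stand for. With the number as a replicate block, 90 genes were called, 84 of them among the 144. Depth was lower in WT LFD libraries (36260187 to 45999456 counts), which limits genes near 1 CPM most, and 5 called genes were over 1 CPM in no HFD mouse.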
